A study of Arabidopsis thaliana with 2 samples.

Results

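Nuclear genes that encode the light-harvesting proteins, the photosystem subunits, the electron carriers, the plastid ATP synthase and the enzymes of the Calvin cycle were described in shoots of Arabidopsis thaliana with and without a GFP-TIE1 transgene. The genes were a fixed list of 60 loci, and a probe set entered if the array's annotation gave it 1 gene that matched a listed locus. Of the 60 loci, 12 had such a probe set and 48 had none named here. The data were 2 Affymetrix arrays of the aerial parts of seedlings 14 days old, 1 of Columbia-0 wild type and 1 of the transgenic line GFP-TIE1-15. Seeds of both were kept at 4 °C for 3 days, then grown at 22 ± 2 °C under 16 h of light and 8 h of dark on half-strength Murashige and Skoog medium. GFP is a fluorescent tag, and TIE1 is known as a protein that recruits TOPLESS corepressors to TCP transcription factors, which act in leaf development. GFP-TIE1-15 is a single line, and no promoter of its transgene was stated in the labels. TIE1 had no named probe set, so the transgene itself was not analysed here.

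In photosynthesis, pigment proteins of the antenna pass light energy to photosystems II and I, which drive electrons from water to NADP+ through the cytochrome b6f complex, plastocyanin and ferredoxin. The ATP synthase of the thylakoid uses the proton gradient that this builds, and the Calvin cycle spends the ATP and NADPH to fix carbon dioxide. In plants the genes of these complexes are divided between nucleus and plastid, and the nuclear ones are known for strong expression in green leaf tissue and for control by light.

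The authors deposited a linear intensity for each probe set, called its signal here. The ratio of the 2 arrays is given as a log2 ratio, GFP-TIE1-15 over wild type, after adding 50 to each signal, and a negative value means a lower signal in GFP-TIE1-15. Each genotype had a single array, so no test could be run and no value has an error or a replicate check, and the number of arrays limits the precision. A difference between plant samples cannot be told apart from one between genotypes. In RNA from whole shoots, fewer green cells and less RNA per cell cannot be told apart either.

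The photosynthesis genes that could be read had slightly lower signals in GFP-TIE1-15. Of the 12, 11 had a log2 ratio below 0, from -0.57 for LHCB4.2 to -0.16 for ATPC1, and LHCB4.3 alone was above 0, at 0.07. Below 0 lay 48.5% of all 11308 measured probe sets, those with a signal of at least 200.02 on the brighter array. The count of 11 was 10 after quantile normalization and 8 when the spike-in controls were set to a ratio of 0, where the share of all measured probe sets below 0 was 48.7% and 23.9%. The median over the 12 genes was -0.33 (-0.18 and -0.11 in the same settings), beside 0.01 over all measured probe sets. Summed over the 12, the signal was 172417 for wild type and 137103 for GFP-TIE1-15, which is 79.5% of wild type.

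The differences were small in size. At a log2 ratio of -0.5 or less, a fold of 1.41, stood 2 of the 12 genes, LHCB4.2 and SBPASE, beside 9.05% of all measured probe sets. At 0.5 or more stood 0 of the 12, beside 9.72%. A 2-fold difference was reached by 0 of the 12 in either direction, beside 2.39% of all measured probe sets lower and 1.2% higher. At most 2 of the 12 genes thus passed any of these sizes, whereas 11 of the 12 lay below 0. However, 9 of the 12 had a mean signal of at least 10000. Of the other probe sets that bright, 72.6% were below 0. The genes were also chosen with earlier results of these data known.

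**Figure D1:**
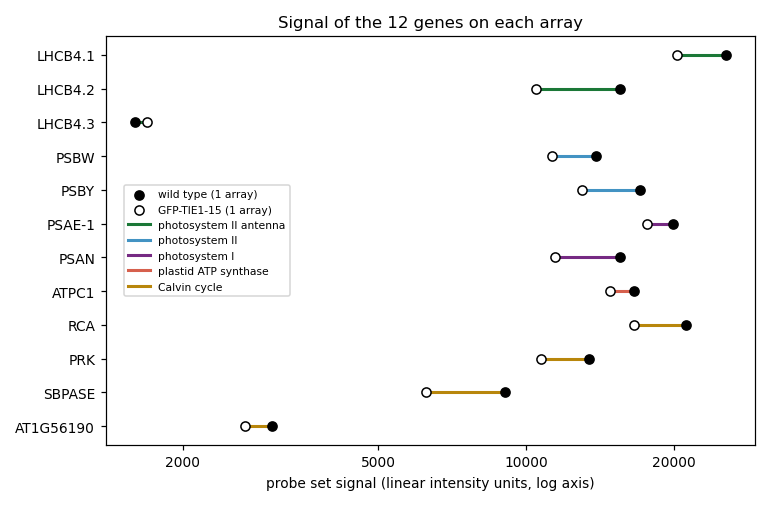
Signal of each of the 12 genes on the wild-type array (filled points) and the GFP-TIE1-15 array (open points), on a log axis in linear intensity units, with line colour for the complex. The open point lies left of the filled point for 11 genes and right of it for LHCB4.3, where the signals were 1600.5 and 1687.

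The antenna of photosystem II was represented by all 3 genes of LHCB4, also known as CP29, a minor antenna protein that links the outer trimers of light-harvesting proteins to the reaction centre. LHCB4.1 (AT5G01530) gave 25525 on the wild-type array against 20353 on the transgenic one, which is 79.7% of wild type. LHCB4.2 (AT3G08940) had 15555 and 10464, or 67.3%, and its log2 ratio of -0.57 was the lowest of the 12. LHCB4.3 (AT2G40100) had 1600.5 and 1687, or 105.4%. The 3 genes thus differed in ratio on these arrays, although they encode forms of 1 protein. The 500 measured probe sets nearest to each in mean signal had a spread (scaled median absolute deviation) of 0.29 to 0.30 in log2 ratio. Their median was -0.09 around LHCB4.1 and LHCB4.2 and 0.03 around LHCB4.3. Only 188 measured probe sets had a mean signal of at least 10000, so most of the 500 around LHCB4.1 and LHCB4.2 were dimmer. In the signal class of LHCB4.1, from 16000 upward, the median was -0.19. In that of LHCB4.2, from 10000 to 16000, it was -0.12. LHCB4.2 lay 0.24 below LHCB4.1 in log2 ratio, which is less than that spread. Under every setting tried for scaling and pseudocount the gap was between 0.24 and 0.33, but scalings that add a constant cannot change it. It was 0.29 after removal of the trend with signal and 0.33 after quantile normalization. LHCB4.3 lay 0.64 above LHCB4.2, and between 0.55 and 0.65 above it in the same settings, with 0.55 for both the trend removal and quantile normalization. Its distance above LHCB4.1 was less stable, 0.40 as deposited, 0.26 after removal of the trend with signal and 0.215 after quantile normalization. Of the photosystem II antenna, LHB1B1, LHB1B2, LHCB2.1, LHCB2.2, LHCB2.3, LHCB3, LHCB5 and LHCB6 were named on no probe set here. The photosystem I antenna was likewise unread, with LHCA1, LHCA2, LHCA3 and LHCA4 all unnamed.

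Both subunits of photosystem II that could be read had lower signals in GFP-TIE1-15. PSBY (AT1G67740), whose precursor gives small membrane subunits of photosystem II, had signals of 17046 and 13003 on the wild-type and transgenic arrays, or 76.3% and a log2 ratio of -0.39. PSBW (AT2G30570), a small subunit known for holding photosystem II and its antenna together, had 13893 and 11299, or 81.3% and a log2 ratio of -0.30. The proteins of the oxygen-evolving complex, which stabilise the manganese cluster that splits water, were not read. These were PSBO1, PSBO2, PSBP-1, PSBQA and PSBQ-2, and the small subunits PSBR, PSBX and PSBTN were also unnamed.

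The subunits of photosystem I that could be read lie on opposite sides of the thylakoid membrane and differed in ratio. PSAN (AT5G64040), a lumenal subunit that serves electron transfer from plastocyanin, had 15534 and 11490, or 74.0% of wild type and a log2 ratio of -0.43. PSAE-1 (AT4G28750), a stromal subunit at the docking site of ferredoxin, had 19941 and 17663, or 88.6% and a log2 ratio of -0.17. After quantile normalization PSAE-1 was at 0.05 and PSAN at -0.34, and with the spike-in controls at 0 they were at 0.04 and -0.22. PSAN was therefore below 0 in each of these scalings, and PSAE-1 was not. Unnamed here were PSAD-1, PSAD-2, PSAE-2, PSAF, PSAG, PSAH-1, PSAH2, PSAK, PSAL and PSAO.

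ATPC1 (AT4G04640), which encodes the γ subunit, the rotating shaft of the plastid ATP synthase, was the nearest to 0 among the 11 lower genes. The signals were 16609 for wild type and 14843 for the transgenic line, or 89.4%, a log2 ratio of -0.16, and it was at 0.06 with the spike-in controls at 0. The subunit genes ATPD and PDE334 were unnamed. So were all 6 listed genes of the electron carriers and the cytochrome b6f complex, PETC, DRT112, PETE1, FNR1, FNR2 and FED A.

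All 4 Calvin cycle genes that could be read had lower signals in GFP-TIE1-15, with SBPASE the lowest in log2 ratio under each scaling. SBPASE (AT3G55800), sedoheptulose-bisphosphatase of the regeneration phase, had 9056 and 6271, or 69.2% of wild type and a log2 ratio of -0.53. RCA (AT2G39730), Rubisco activase, which frees the active site of Rubisco from inhibitory sugar phosphates, had 21195 and 16628, or 78.5% and -0.35, which was -0.12 after quantile normalization. PRK (AT1G32060), phosphoribulokinase, which makes the acceptor of carbon dioxide, had 13432 and 10724, or 79.8% and -0.32. SBPASE and PRK act only in the Calvin cycle, and both are known to be switched on in the light through thioredoxin. AT1G56190, a listed locus with no symbol in the reference table, had 3032 and 2678, or 88.3% and -0.18. It was at 0.04 with the spike-in controls at 0, where SBPASE was still at -0.31. SBPASE kept a log2 ratio of -0.54 after quantile normalization and -0.49 after removal of the trend with signal. The other 10 listed genes of the cycle, RBCS1A, GAPA, GAPA-2, GAPB, HCEF1, PGK1, TIM, AT3G60750, FBA1 and FBA2, were unnamed here.

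**Figure D2:**
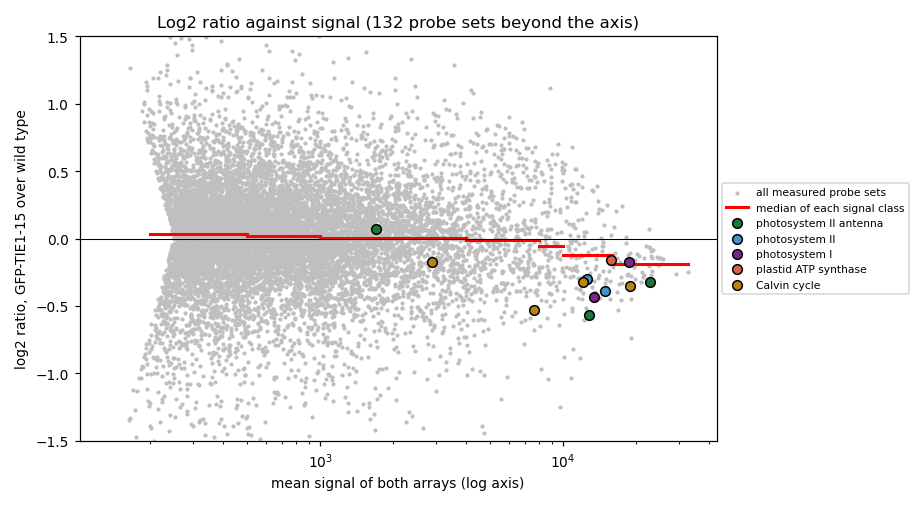
Log2 ratio (GFP-TIE1-15 over wild type, vertical) against the mean signal of both arrays (horizontal, log axis) for all measured probe sets in grey, of which 132 lie beyond the vertical axis at 1.5, with the 12 genes coloured by complex and red lines for the median of each signal class. The red line is at 0.03 for the dimmest class and -0.19 for the brightest, and 9 of the 12 genes stand where it has left 0.

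Most of these genes were among the brightest on the arrays, where the ratio of all probe sets moved below 0. In the classes of rising mean signal the median log2 ratio was 0.03 from 200.02 to 500, 0.01 from 2000 to 4000, -0.12 from 10000 to 16000 and -0.19 from 16000 upward. In the last class 91.7% of probe sets were below 0. A mean signal of at least 10000 was reached by 9 of the 12 genes and by 179 other probe sets. Of those 179, 133 were matched to no single locus here, so they may include photosynthesis genes that were not read. The matched ones included plastid-encoded photosynthesis genes, such as atpB and psbM.

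Beside the other probe sets of this brightness, the 9 genes lay toward the low side. Their median was -0.33, and that of the 179 was -0.14, with the 10th and 90th percentiles at -0.41 and 0.30. Below 0 were 9 of the 9 genes and 72.6% of the 179, and at -0.5 or less 1 of the 9 and 6.15%. Among all 188 probe sets of this brightness, only 6 had a lower ratio than LHCB4.2, 19 a lower one than PSAN and 23 a lower one than PSBY. RCA had 31 below it, LHCB4.1 36, PRK 37 and PSBW 44. PSAE-1 with 86 and ATPC1 with 91 stood near the middle of that class. How much of the difference of the 9 genes goes with their brightness was not tested.

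A rank within each array does not change when an array is rescaled, so ranks were read as well, with 1 for the brightest of 22746 probe sets. The rank was lower in GFP-TIE1-15 for 10 genes and higher for PSAE-1 and LHCB4.3. LHCB4.1 went from place 8 in wild type to 21, LHCB4.2 from 72 to 166 and SBPASE from 237 to 438. PSAN went from 73 to 134, PSBY from 58 to 92 and RCA from 33 to 43. PSBW was at 97 and 142, PRK at 107 and 157, and AT1G56190 at 1109 and 1259. ATPC1 hardly moved, at 64 and 65, and PSAE-1 was at 42 and 38. LHCB4.3 was at 2178 and 2088. The genes with the lowest log2 ratios, from LHCB4.2 up to PSBW, thus all stood lower in rank order as well, whatever the scaling between the arrays.

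**Figure D3:**
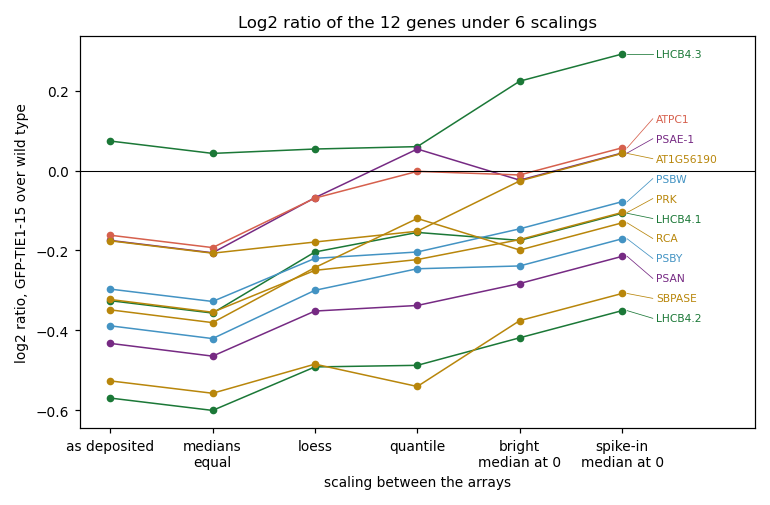
Log2 ratio of each of the 12 genes (GFP-TIE1-15 over wild type, vertical) under 6 scalings between the arrays, with 1 line per gene coloured by complex as in the other plots. LHCB4.2 and SBPASE are the lowest lines in every scaling, LHCB4.3 the highest, and ATPC1, PSAE-1 and AT1G56190 cross 0 with the spike-in controls at 0.

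Scalings that add a constant moved the 12 genes alike, and the others did not. The 12 measured spike-in probe sets, for bacterial and phage transcripts, had a median log2 ratio of -0.22, and setting it to 0 shifted every probe set up by that amount. The median over the 12 genes was then -0.11, and the median of all measured probe sets 0.23. After removal of the trend with signal the list median was -0.23, with 11 of 12 genes below 0, and with the array medians made equal it was -0.36. LHCB4.2 was at -0.49 after the trend was removed, PSAN at -0.35, PSBY at -0.30, RCA at -0.24 and PRK at -0.25. PSAE-1 and ATPC1 were then both at -0.07. Quantile normalization moved RCA to -0.12, LHCB4.1 to -0.16 and ATPC1 to -0.002, while LHCB4.3 at 0.06 stayed near its value as deposited.

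The plastid-encoded genes of the same complexes, most of whose transcripts lack a poly(A) tail, were mostly below 0 as deposited. Of 42 measured, 34 had a log2 ratio below 0, beside 48.5% of all measured probe sets, with a median of -0.15. With the spike-in controls at 0, 16 of the 42 were below 0, beside 23.9% of all measured probe sets, and the median was 0.06. In photosystem II, PSBY and PSBW at -0.39 and -0.30 stood beside 15 plastid-encoded genes with a median of -0.07, from psbB at -0.52 to psbC at 0.33, 9 of them below 0. In photosystem I, PSAN and PSAE-1 at -0.43 and -0.17 stood beside 5 with a median of -0.10, from psaC at -0.45 to psaI at -0.09. ATPC1 at -0.16 stood beside 6 ATP synthase genes with a median of -0.17, from atpH at -0.35 to atpI at 0.05. RCA and rbcL, the gene of the large subunit of Rubisco, had the same log2 ratio of -0.35 as deposited, and rbcL had signals of 4683 and 3665. After quantile normalization RCA was at -0.12 and rbcL at -0.32, so the 2 were no longer equal. No test of the difference between nuclear and plastid-encoded genes was possible.

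**Figure D4:**
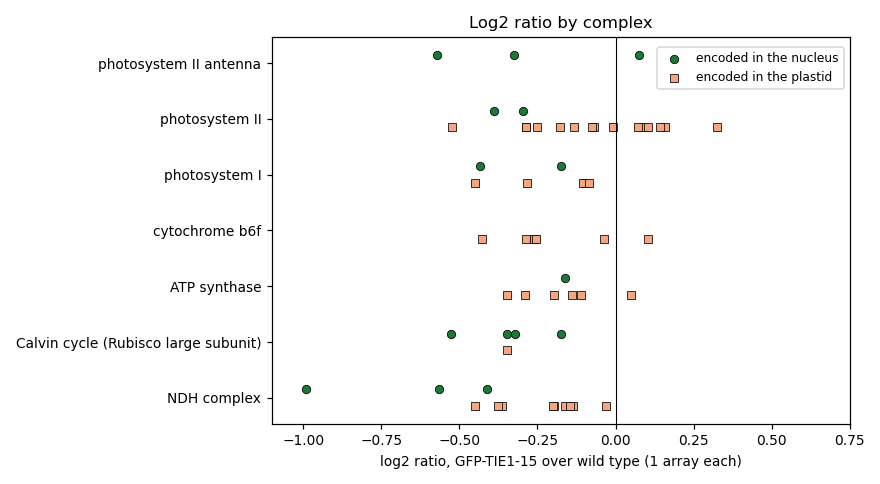
Log2 ratio (GFP-TIE1-15 over wild type, horizontal) of single genes by complex, with green circles for genes of the nucleus and orange squares for genes of the plastid. The nuclear genes of both photosystems lie at or below -0.17, and plastid-encoded photosystem II genes spread from -0.52 to 0.33; the nuclear NDH genes were added after their values were seen.

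Further nuclear genes of photosynthesis were read from lists of fixed loci outside the 60. Their counts below 0 stand beside 48.5% of all measured probe sets. PSB27 (AT1G03600), a lumenal assembly factor of photosystem II and the only 1 of 17 further subunit and Calvin cycle genes with a named probe set, had 8280 and 6356, a log2 ratio of -0.38. All 3 read photorespiration genes of 14 were below 0, with a median of -0.25, from HPR, the hydroxypyruvate reductase of the peroxisome, at -0.32 to AT1G11860 at -0.08. Chlorophyll synthesis genes lay closer to 0, with 8 of 23 read, 6 of them below 0 and a median of -0.03. AT1G74470, annotated as geranylgeranyl reductase, was lowest at -0.28 and HEME1, a uroporphyrinogen decarboxylase, next at -0.22. HEMB1, which acts early in tetrapyrrole synthesis, was highest at 0.10, and HEME2 was at 0.04. Of 19 genes for assembly, repair and regulation only PGRL1B, of cyclic electron flow, at -0.42 and LPA1, of photosystem II assembly, at -0.14 were read. None of the 12 listed regulators of photosynthesis genes had a named probe set. With the spike-in controls at 0 the chlorophyll synthesis median was 0.19 and the photorespiration median -0.03. Below 0 were then 1 of the 8 chlorophyll synthesis genes and 2 of the 3 photorespiration genes, beside 23.9% of all measured probe sets.

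NdhN and NdhL had the lowest log2 ratios of the photosynthesis genes read outside the list. They are subunits of the thylakoid NDH complex, which carries cyclic electron flow around photosystem I. In a list of 27 NDH and lumen proteins added after the files were seen, 8 were read and all 8 were below 0, beside 48.5% of all measured probe sets, with a median of -0.23. With the spike-in controls at 0, 5 of the 8 were below 0, beside 23.9% of all measured probe sets, and the median was -0.013. The NDH genes of the list were added with their values known. These counts therefore only describe the list, and no conclusion is drawn from them beside those shares. NdhN (AT5G58260) had signals of 2371 and 1169, the second being 49.3% of wild type and a log2 ratio of -0.99. NdhL (AT1G70760) had 2397 and 1604 (-0.57), and NdhS (AT4G23890) had 2333 and 1741 (-0.41). The plastid-encoded psbB, at -0.52, was lower than NdhS. These 3 nuclear subunits stood beside 9 plastid-encoded NDH genes that were all below 0 as deposited, with a median of -0.20. In the spike-in scaling NdhN, NdhL and NdhS were at -0.77, -0.35 and -0.19. The plastid-encoded NDH genes were then on both sides of 0, from ndhE at -0.23 to ndhC at 0.19.

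Signals of other cell types gave little to set beside these values. A probe set was named for 3 of 7 root markers, and the root hair expansins EXPA7 and EXPA18 were below the minimum signal on both arrays. The summed signal of the 3 was 6838 for wild type and 6002 for the transgenic line, nearly all of it PYK10, a root and seedling β-glucosidase, at 6746 and 5954. FMA, the guard cell regulator FAMA, had 427.4 and 284.3. Their part in the photosynthesis values was not tested.

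The 12 genes lie on all 5 nuclear chromosomes and their direct neighbours stood on both sides of 0. Of 24 protein-coding neighbours in the reference order, 7 were measured, 3 of them below 0, with a median log2 ratio of 0.05 and a range from -0.10 to 0.22. PSAN at -0.43 had the highest of these neighbours, AT5G64030, at 0.22.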

How the data were processed

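The deposited values were probe set intensity values on a linear scale, made by the authors with GCOS 1.0 and MAS5, per the submitters' processing notes; 5 µg of total RNA went into each array, per the labels' protocols. The scaling target is not stated there. Without the top and bottom 2% of values the mean was 500.05 for either array, and no further scaling was applied. Median signals were 169.3 (wild type) and 173.05 (GFP-TIE1-15), and the minimum below was reached by 10712 and 10747 probe sets.

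The array held 22810 probe sets. The annotation gave 1 symbol to 13513 of them, several to 503, which were left unnamed, and none here to 8730 outside the controls; 13436 matched a locus of the TAIR10.1 RefSeq table. Ratios were taken on log2(signal + 50), where 50 is 10% of the trimmed mean, and the minimum on the brighter array was 40% of that mean. All 12 genes passed on both arrays, each with 1 probe set not marked as shared. Lower and higher were counted by fixed sizes of log2 ratio. Genes are named by locus list, with up to 8 values per complex and the lowest and highest of the other lists. The members and lists were chosen with earlier results of these data known, and 3 lists were added later. Alternatives were quantile, median, loess (span 0.3) and spike-in scaling, pseudocounts of 1 and of 25% of that mean, no minimum or 100% of it, no shared probe sets, and the brightest probe set of a gene; centring on the probe sets of at least 10000 was chosen after seeing the data. Scripts were tested on simulated data. Python 3.11.15, numpy 2.4.6, pandas 2.3.3, statsmodels 0.14.6 and matplotlib 3.10.9 were used.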

Additional observations from a re-analysis of the deposited data

How the results depend on the processing

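No paired analysis was possible because there was a single array of either genotype. For the 12 genes, the pseudocounts and the array medians changed no count and no median by 0.1 or more. The minimum and the choice of probe set could not change these values. Each gene had 1 unshared probe set, above every minimum tried. Of 132 single-gene values under the alternatives, 99 moved by less than 0.1, among them all those that could not change. A further 29 moved by 0.1 or more with the sign kept, and 4 changed sign. The sign changed for PSAE-1, at 0.054, after quantile normalization. With spike-in scaling it changed for PSAE-1 at 0.044, ATPC1 at 0.057 and AT1G56190 at 0.043. Scaling at the bright end did move medians. Quantile normalization gave a list median of -0.18 with 1 gene at -0.5 or less, and medians of -0.16 for the photosystem II antenna, -0.23 for photosystem II, -0.14 for photosystem I and -0.19 for the Calvin cycle. Removal of the loess trend left 0 genes at -0.5 or less and put the antenna at -0.20. Spike-in scaling gave a list median of -0.11, 0 genes at -0.5 or less, and medians of -0.11, -0.12, -0.085 and -0.12 for the same 4 groups. It put chlorophyll synthesis at 0.19, photorespiration at -0.029, assembly and regulation at -0.066, plastid-encoded genes at 0.064, and the added lists at 0.04 (assembly and curvature), -0.013 (NDH and lumen) and 0.174 (thioredoxin). Centring on probe sets of at least 10000 gave -0.17 for the list, 0 genes at -0.5 or less, and -0.18, -0.19, -0.15 and -0.19 for the 4 groups. It put chlorophyll synthesis at 0.12, photorespiration at -0.10, assembly and regulation at -0.13 and plastid-encoded genes at -0.004. Spike-in scaling and centring add a constant by construction; the cause of the other shifts was not tested. Saturation at the bright end was not tested.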

Other observations

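Among the added lists, that of photosystem assembly, one-helix and thylakoid curvature proteins had 8 of 19 genes read. Of these, 5 were below 0, beside 48.5% of all measured probe sets, with a median of -0.18. With the spike-in controls at 0, 4 of the 8 were below 0, beside 23.9% of all measured probe sets, and the median was 0.04. AT4G38100, annotated as CURT1D, stood apart from the other curvature genes, which encode proteins that bend the grana edges. Its signals were 724.4 and 1231, the higher in the transgenic line, a log2 ratio of 0.73, while AT4G01150 (CURT1A) and AT1G52220 (CURT1C) were both at -0.30. LPA2, of photosystem II assembly, was lowest at -0.36, and LIL3:2 was at 0.08. AT4G38100 was named after its value was seen, and 9.72% of all measured probe sets were at 0.5 or more.

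In the list of thioredoxin, carbonic anhydrase and Rubisco assembly genes, 7 of 13 were read. Of these, 5 were below 0, beside 48.5% of all measured probe sets, with a median of -0.04. With the spike-in controls at 0, 1 of the 7 was below 0, beside 23.9% of all measured probe sets, and the median was 0.174. TRXF2, a thioredoxin of the type that activates Calvin cycle enzymes, had 2175 and 1574, a log2 ratio of -0.45, and the next lowest, AT2G04700, was at -0.15. AT3G47650 was highest at 0.07 and ATHM2 next at 0.04.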
